A study of Mus musculus with 3 samples.

Results

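The mouse genes named Hnrnp and Srsf, which encode the heterogeneous nuclear ribonucleoproteins (hnRNPs) and the serine/arginine-rich (SR) splicing factors, were examined in T-helper 1 (Th1) cells. Members were taken by symbol, with names marked -ps as pseudogenes left out, and 31 of the 50600 genes in the count tables met the rule: 20 hnRNP genes and 11 SR genes. Both pseudogenes left out had at most 2 counts in a library. All 3 libraries came from primary Th1 cells of C57BL/6NJ mice, differentiated from CD4+ T cells and named in the file headers for a 48 h time point. They are biological replicates with separate biosample entries that share 1 donor entry. The study as held here has 1 group, so genes were compared within libraries, and libraries with each other, but no condition was compared. Test values below apply only to these 3 samples. One kind of test asks whether the libraries differ by more than counting error. The other asks whether the mean ratio of a gene pair departs from equal levels.

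hnRNPs bind nascent transcripts as they leave RNA polymerase and package them. Many of them bind silencer sequences and repress nearby splice sites, and several also act in RNA export, transport and decay. SR proteins carry RNA recognition motifs and a domain rich in arginine and serine repeats. They bind exonic enhancers, recruit the U1 particle and the U2AF factor to the adjacent splice sites, and are moved between speckles and sites of transcription by phosphorylation. The balance of both families sets the choice of many alternative exons, which in T cells includes the variable exons of Ptprc (CD45). Many genes of both families limit their own expression through exons or introns whose inclusion sends the transcript to nonsense-mediated decay. Of the 31 members, 19 have an annotated nonsense-mediated decay transcript, 10 hnRNP and 9 SR genes, against 20.9% of all protein-coding genes. The genes were not matched for their number of annotated transcripts. Whether these members limit their own expression was not tested. A retained-intron transcript is annotated for 22 of 31, 14 hnRNP and 8 SR genes, against 41.8% of protein-coding genes. Gene-level counts do not separate these isoforms from the coding ones.

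Replicates 1, 2 and 3 held 4742025, 50627 and 3543816 counts, over 17270, 7749 and 16786 genes detected. A single count was worth 0.211, 19.8 and 0.282 CPM (counts scaled to a common library total) in that order, so members of replicate 2 rest on 80 counts or fewer each. Of the markers of the label, all 8 T-cell genes and all 4 Th1 genes listed reached 1 TPM (counts per exonic length, scaled in the same way) in every library. Among them, Cd4 stood at 251, 154 and 108 TPM and Tbx21 at 98.0, 99.6 and 52.0 TPM. In replicate 2 Ifng and Il12rb1 passed the floor on 2 counts each. Of the 2 CD8 T-cell genes, Cd8a had no count, and Cd8b1 had 21, 1 and 13 counts, or 6.61, 27.8 and 4.45 TPM. All 3 natural killer genes and 3 of 4 B-cell genes had no count in any library, and Cd79a had 10, 0 and 22 counts. Of 5 myeloid genes, 3 had no count, and Cd68 had 12, 0 and 5 counts. Csf1r stood at 105, 84.5 and 167 TPM with 17.8% of its exonic length under exons of the other strand. It was above Tbx21 in replicates 1 and 3. Of 3 erythroid genes, 2 had no count, and Alas2 had 20, 0 and 29. Of 3 neuron genes, Syt1 had no count, Tubb3 had 4, 0 and 0, and Map2 had 8, 0 and 9. TPM was computed from the deposited counts and exon lengths. Counting kept 1 read orientation, and which strand the library kit reads first is not given in the sources used here. Whether the counts of any member, with or without opposite-strand exons, come from the orientation of its own transcripts was not tested, and all levels and ranks below are of the counts as deposited.

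The promoter of the highest gene of each family carries CCAAT, the binding sequence of the general factor NF-Y, and TATAAA, the core of a TATA box. The windows shown, from RefSeq on GRCm38.p6, run from 250 bases before to 50 bases after the annotated start, 5′ to 3′ on the gene's own strand, with capitals for every match on either strand of the 4 motifs searched. The motifs were the CCAAT box, the TATAAA run, the ETS factor core CCGGAAG and the run TCTCGCG. Hnrnpab and Srsf2 are shown as the highest gene of each family in TPM. Hnrnpa2b1 is shown because its start lies 466 bp from that of the divergently transcribed Cbx3.

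Hnrnpab promoter, chr11:51606832-51607131, minus strand: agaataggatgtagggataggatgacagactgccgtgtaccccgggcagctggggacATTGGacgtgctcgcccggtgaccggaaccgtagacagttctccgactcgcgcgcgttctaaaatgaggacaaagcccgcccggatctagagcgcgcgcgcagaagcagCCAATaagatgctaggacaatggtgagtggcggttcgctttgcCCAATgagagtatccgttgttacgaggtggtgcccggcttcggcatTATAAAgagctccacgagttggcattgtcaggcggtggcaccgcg
Srsf2 promoter, chr11:116853045-116853344, minus strand: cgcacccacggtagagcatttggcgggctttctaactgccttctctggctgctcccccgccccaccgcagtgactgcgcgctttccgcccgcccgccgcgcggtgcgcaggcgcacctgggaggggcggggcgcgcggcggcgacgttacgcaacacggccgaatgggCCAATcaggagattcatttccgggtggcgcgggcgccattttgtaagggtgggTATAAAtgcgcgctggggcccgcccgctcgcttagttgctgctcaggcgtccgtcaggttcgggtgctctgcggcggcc
Hnrnpa2b1 promoter, chr6:51469845-51470144, minus strand: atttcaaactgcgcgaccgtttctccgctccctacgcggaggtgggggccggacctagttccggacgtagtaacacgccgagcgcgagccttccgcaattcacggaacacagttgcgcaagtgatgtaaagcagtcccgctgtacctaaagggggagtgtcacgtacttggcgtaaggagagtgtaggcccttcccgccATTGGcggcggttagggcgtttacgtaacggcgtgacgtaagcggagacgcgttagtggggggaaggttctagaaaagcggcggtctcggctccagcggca

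The Hnrnpab window holds 3 CCAAT matches and 1 TATAAA, and the Srsf2 window 1 of each. In both, the first base of TATAAA lies 29 bases before the gene start used for counting; the RefSeq start of Hnrnpab differs, and its TATAAA begins 5 bases after it. Hnrnpa2b1 holds 1 CCAAT match, read on the other strand as ATTGG. RefSeq windows were found for 29 members (41 windows, some overlapping). CCAAT was in a window of 17 of the 29 (58.6%), against 41.1% of the 27025 genes with a window. TATAAA was in 4 of 29 (13.8%), against 15.7% of all genes. CCGGAAG was in 6 of 29 (20.7%), against 9.93%. TCTCGCG, a run found in housekeeping promoters, was also in 6 of 29 (20.7%), against 2.92%. These are letter matches in a fixed window, in genes with unequal numbers of windows, and no binding data were used.

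Nearly every member was present in every library. All 20 hnRNP genes and 10 of 11 SR genes reached 1 TPM in each of the 3 libraries, a level met by 14.8% of the 50600 genes. In replicate 2 this floor meant little more than detection. Hnrnph2 passed there with 9.45 TPM from 1 count, and Srsf10 with 17.7 TPM from 3 counts. At 10 TPM the count was 28 of 31 (18 hnRNP and 10 SR genes; 9.14% of all genes), and at 100 TPM it was 10 of 31 (8 and 2; 1.98%). Srsf12, a close relative of Srsf10 with a narrow tissue range, was the exception, with 0, 0 and 6 counts. In replicate 1 no count of it allows a level of up to 0.633 CPM, and in replicate 2 of up to 59.3 CPM.

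The hnRNP genes took the larger share of the counts. In replicates 1, 2 and 3 they held 51636 counts (1.09%, exact 95% interval 1.08 to 1.10%), 469 counts (0.926%, 0.845 to 1.01%) and 21809 counts (0.615%, 0.607 to 0.624%). The SR genes held 12588 (0.265%, 0.261 to 0.270%), 99 (0.196%, 0.159 to 0.238%) and 5742 (0.162%, 0.158 to 0.166%). These intervals cover counting error only. Replicate 3 had the lowest share of both families, and its interval overlaps that of no other library for the hnRNP genes and that of replicate 2 for the SR genes.

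Per length, the hnRNP genes summed to 5492, 4314 and 2411 TPM and the SR genes to 1416, 1025 and 691 TPM in replicates 1, 2 and 3. The ratio of the sums was 3.88, 4.21 and 3.49, a mean of 3.86 ± 0.36 (SD, n = 3), in families of 20 and 11 genes. The typical member differed less: median levels were 171, 141 and 84.2 TPM for hnRNP genes against 115, 93.2 and 67.4 TPM for SR genes. The difference of the family medians in log2(TPM + 1), hnRNP minus SR, was 0.57, 0.59 and 0.31, a mean of 0.49 ± 0.16 (SD, n = 3). It was above 0 in every library. Over members without opposite-strand exons it was 0.92, 0.53 and 1.16. The median member stood at the 97.3, 96.9 and 96.4th percentile of protein-coding genes for hnRNP and at 95.9, 94.99 and 95.6 for SR. The 3 highest genes of each family carried 52.8, 46.4 and 50.1% of the hnRNP total and 48.5, 47.3 and 49.1% of the SR total.

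**Figure D1:**
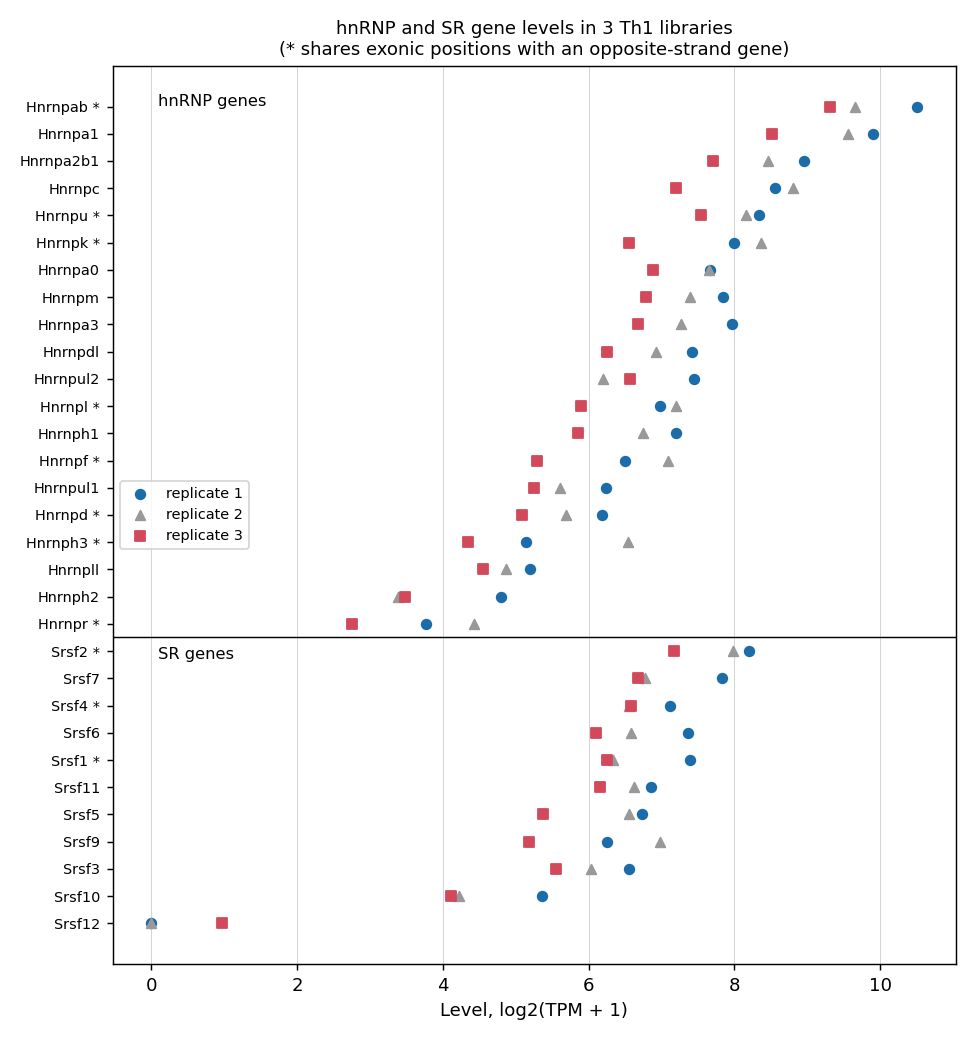
Level of each member as log2(TPM + 1) on the horizontal axis in replicates 1 (circles), 2 (triangles) and 3 (squares), hnRNP genes above and SR genes below, each ordered by mean TPM; asterisks mark genes with opposite-strand exons over their own. Hnrnpab and Hnrnpa1 led the hnRNP genes and Srsf2 the SR genes in every library, replicate 3 lay below replicate 1 for every gene but Srsf12, and replicate 2 stood highest for Hnrnpc, Hnrnpk, Hnrnpl, Hnrnpf, Hnrnph3, Hnrnpr and Srsf9.

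The A/B group of hnRNPs, small proteins with a pair of RNA recognition motifs and a glycine-rich tail, held the top of the family in TPM. In counts Hnrnpu, which is outside this group, was above Hnrnpab in replicates 2 and 3 (80 against 54, and 4231 against 3488). Hnrnpab (chromosome 11, 51600100 to 51606847, minus strand, mm10), which binds RNA and single-stranded DNA, had 8658, 54 and 3488 counts, or 1454, 801 and 636 TPM (964 ± 432; SD, n = 3). Hnrnpa1 (chromosome 15, 103240432 to 103244955, plus strand), a shuttling splicing repressor, had 3912, 35 and 1374 counts, or 953, 753 and 363 TPM (690 ± 300). They ranked first and next in all 3 libraries, and their values overlapped across libraries. Hnrnpa2b1 (chromosome 6, 51460932 to 51469894, minus strand), which acts in splicing and RNA transport, had 6952, 56 and 2705 counts, or 493, 351 and 208 TPM (351 ± 142). In counts it stood above Hnrnpa1 in every library, and per length below it. Hnrnpa0, which binds AU-rich mRNAs, had 202, 200 and 117 TPM, and Hnrnpa3, a further member of the group, 248, 153 and 102 TPM, so the order of this last pair turned between libraries 1 and 2.

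The D group binds AU-rich elements that mark short-lived mRNAs, such as those of cytokines. Hnrnpdl stood at 170, 120 and 75.6 TPM, and Hnrnpd, also called AUF1, at 71.9, 50.5 and 32.9 TPM. Hnrnpd was the lower in every library.

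Among the other hnRNP genes, 4 were high. Hnrnpc, which binds uridine tracts and in human cells blocks splice sites near them, had 376, 446 and 146 TPM. Hnrnpu, a scaffold protein that ties RNA to chromatin, had 8037, 80 and 4231 counts, or 324, 285 and 185 TPM. Hnrnpk, which binds cytosine-rich RNA through KH domains, had 254, 330 and 92.8 TPM. Hnrnpm, a splicing regulator, had 230, 167 and 109 TPM. Replicate 3 was the lowest for each of these 4, while the order of Hnrnpc, Hnrnpu and Hnrnpk was not the same in all libraries. The U-related Hnrnpul2 and Hnrnpul1 had 173, 72.1 and 93.6 TPM and 74.6, 47.7 and 37.2 TPM.

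The H/F group binds runs of guanines. Hnrnph1 had 146, 106 and 57.0 TPM, Hnrnpf 89.7, 136 and 38.3 TPM, Hnrnph3 34.2, 91.7 and 19.3 TPM, and the X-linked Hnrnph2 26.8, 9.45 and 10.2 TPM. The replicate 2 values of Hnrnpf, Hnrnph3 and Hnrnph2 rest on 10, 7 and 1 counts. Hnrnpl, which binds CA repeats, had 125, 146 and 58.8 TPM. Hnrnpll, the relative of Hnrnpl that promotes skipping of the variable Ptprc exons in activated T cells, had 895, 8 and 517 counts, or 35.8, 28.3 and 22.5 TPM. It was below Hnrnpl in every library, and its values varied least of the hnRNP genes in proportion to the mean (28.8 ± 6.69 TPM). Hnrnpr, related to Syncrip and counted over 22199 bases of exon, had 12.7, 20.5 and 5.78 TPM, the lowest per length in replicates 1 and 3, while Hnrnph2 was the lowest in replicate 2.

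Among the SR genes, Srsf2 (chromosome 11, 116849901 to 116853094, minus strand), an exonic enhancer binder also called SC35, had 1855, 18 and 835 counts, or 293, 251 and 143 TPM (229 ± 77.3; SD, n = 3), and ranked first in every library. Srsf7, which carries a zinc knuckle and acts in mRNA export, had 227, 109 and 101.3 TPM. Srsf1, the founding member of the family, had 2036, 11 and 845 counts, or 167, 79.5 and 75.1 TPM. The related group with long arginine/serine domains held Srsf6 (163, 94.4 and 67.4 TPM), Srsf4 (138, 92.8 and 94.9 TPM) and Srsf5 (105, 93.2 and 40.5 TPM). Below Srsf2 the libraries gave no common order: Srsf7 was next in replicates 1 and 3, and Srsf9, with 5 counts, in replicate 2.

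Srsf11, which works near the 3′ splice site, had 115, 97.8 and 70.6 TPM. Srsf9, similar in build to Srsf1, had 75.2, 125 and 35.3 TPM, and Srsf3, the export and splicing factor with a single RNA recognition motif, 92.6, 64.7 and 45.9 TPM. Srsf10, which represses splicing when dephosphorylated, had 39.9, 17.7 and 16.4 TPM and was the lowest SR gene after Srsf12.

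The profile over the 30 members other than Srsf12 was close between the deep libraries. Across genes, log2 levels of replicates 1 and 3 had Pearson's r = 0.99 and Spearman's rho = 0.97, and replicate 2 had r = 0.90 with each of the others. Within the 10 SR genes rho was 0.93 between replicates 1 and 3, and 0.48 and 0.44 with replicate 2. Genes are not independent replicates, all values of a library share its depth, and no p is given.

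Paralogues were compared as log2 ratios of TPM within each library, over 15 pairs set by family relation. Of the genes in these pairs, Srsf4 (43.0%), Hnrnpab (29.1%) and Hnrnpf (26.5%) have the largest shares of their length under opposite-strand exons. The order within a pair was the same in all 3 libraries in 10 of the 14 pairs for which every library gave a ratio, and in both deep libraries in 13 of 14. With 3 libraries an exact two-sided sign-flip permutation test cannot give less than p = 0.25. These 10 pairs had that value (adjusted 0.35 over 14 pairs), 3 had p = 0.50 (adjusted 0.54) and 1 had p = 1.0 by the same exact test, so no pair could pass the threshold.

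In the A/B group, Hnrnpa1 over Hnrnpa2b1 was 0.95, 1.10 and 0.80 (0.95 ± 0.15; SD, n = 3). Hnrnpa1 over Hnrnpa3 was 1.94, 2.30 and 1.84, and Hnrnpa2b1 over Hnrnpa3 was 0.99, 1.20 and 1.04. The counting interval excluded 0 in every library for each of these 3 pairs. Hnrnpab over Hnrnpd was 4.34, 3.99 and 4.27 (4.20 ± 0.19), the widest ratio of those given by all libraries. Hnrnpd over Hnrnpdl was the steadiest of the 14, at -1.24, -1.25 and -1.20 (-1.23 ± 0.03), although the replicate 2 interval, from 9 and 14 counts, ran from -2.64 to 0.06.

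Hnrnph1 over Hnrnph2 was 2.44, 3.49 and 2.48, Hnrnpl over Hnrnpll 1.80, 2.36 and 1.39, and Hnrnpu over Hnrnpul1 2.12, 2.58 and 2.31, all above 0 beyond the counting interval in every library. Hnrnpl over Hnrnpll differed between the deep libraries by more than counting: the replicate 1 interval ran from 1.68 to 1.92, and that of replicate 3 ended at 1.56. Hnrnpul1 over Hnrnpul2 was -1.21, -0.60 and -1.33, and the replicate 2 interval held 0. Hnrnph1 over Hnrnpf was 0.70, -0.35 and 0.57, and turned sign in replicate 2 within an interval of -1.60 to 0.96.

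Of the SR pairs, Srsf3 over Srsf7 kept its sign at -1.30, -0.75 and -1.14. Srsf1 over Srsf9 was 1.15, -0.65 and 1.09, with a replicate 2 interval of -2.29 to 1.22. Srsf5 over Srsf4 was -0.39, 0.01 and -1.23. Srsf6 over Srsf4 was 0.24 (interval 0.13 to 0.35), 0.03 and -0.49 (interval -0.65 to -0.33), the single pair whose deep libraries gave opposite signs with intervals that exclude 0. Both pairs with Srsf4, the member with the largest opposite-strand share, in the denominator were lower in replicate 3. The cause was not tested. Srsf10 over Srsf12 was at least 89.8-fold in replicate 1, taken against the floor of 3 counts in that library. In replicate 3 it was 16.9-fold, a log2 ratio of 4.08 (2.94 to 5.54).

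**Figure D2:**
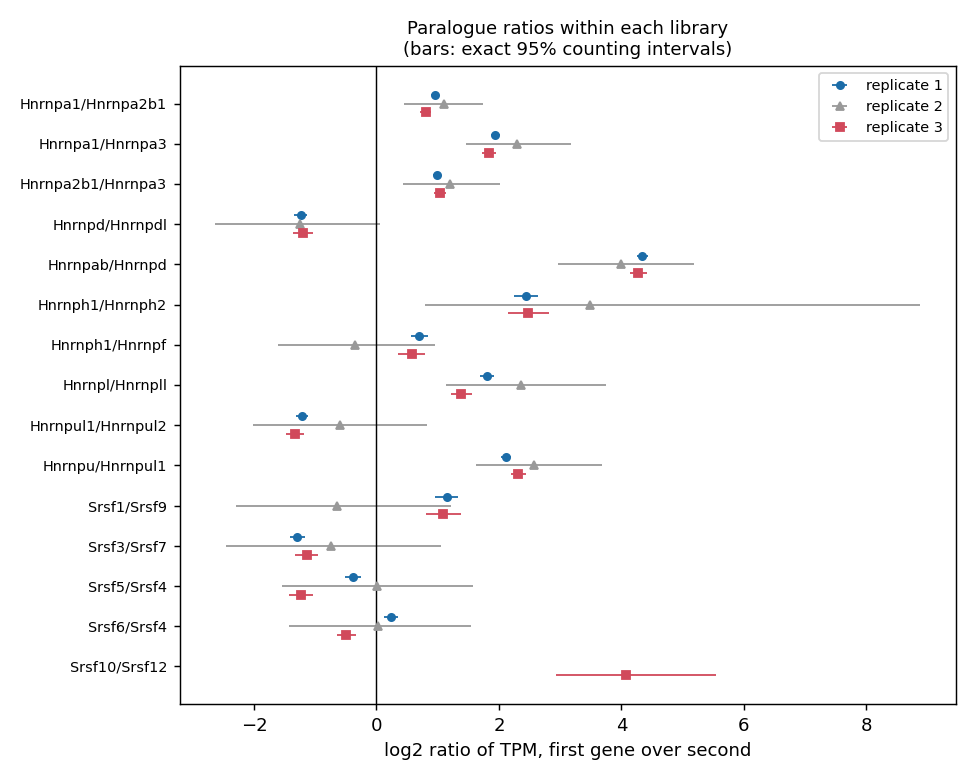
log2 ratio of TPM of the first over the second gene of 15 paralogue pairs (horizontal axis), in replicates 1 (circles), 2 (triangles) and 3 (squares), with exact 95% counting intervals as bars and a line at 0. Hnrnpa1/Hnrnpa2b1, Hnrnpab/Hnrnpd and Hnrnpu/Hnrnpul1 lie on one side in all libraries, Srsf6/Srsf4 on opposite sides in replicates 1 and 3 (0.24 and -0.49), and the wide bars belong to replicate 2.

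Several of these orders depend on the length that divides the counts. The deposited length is the union of all annotated exons, retained introns included. It is 6584 bases for Hnrnpa2b1, against 1728 for its longest coding transcript, and 11677 against 3116 for Hnrnpll. The median ratio of both lengths was 1.08 over protein-coding genes. Divided by the length of the longest coding transcript, Hnrnpa2b1 averaged 1087 TPM, Hnrnpab 919 and Hnrnpa1 560, so that Hnrnpa1 over Hnrnpa2b1 reversed from a mean of 0.95 to -0.98. Srsf3 over Srsf7 was close to 0 at -0.02 and Hnrnpul1 over Hnrnpul2 at -0.01 on that scale, while Hnrnpab over Hnrnpd (4.32) and Hnrnpd over Hnrnpdl (-1.93) kept their direction. The same counts enter both scales, including any from exons outside the coding transcript, so neither length gives the level of 1 isoform.

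**Figure D3:**
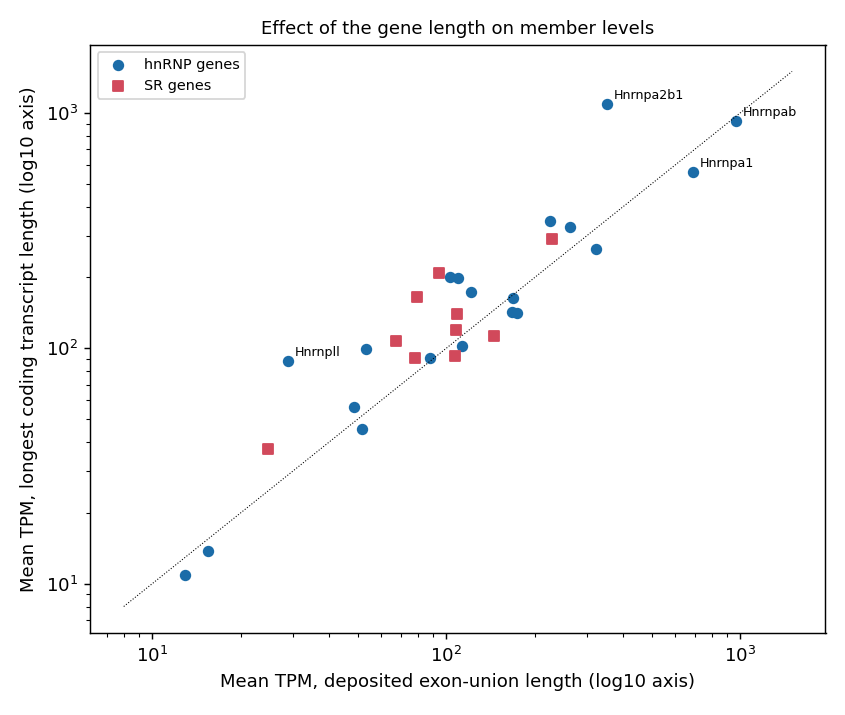
Mean TPM of each member over 3 libraries with the deposited exon-union length (horizontal, log10 axis) and with the longest coding transcript (vertical, log10 axis), hnRNP genes as circles and SR genes as squares, Srsf12 left out, with the line of equality. Hnrnpa2b1 moves most, with 351 TPM on the horizontal axis and 1087 TPM on the vertical one, past Hnrnpab and Hnrnpa1.

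Near-identical copies also touch some members. Of the 50-base windows of the longest coding transcript, 51.9% of Hnrnpf, 46.4% of Hnrnpa1, 34.5% of Hnrnpk, 31.5% of Srsf3, 28.2% of Hnrnpa3 and 27.9% of Srsf5 occur in transcripts of other genes. Those of Hnrnph2 (18.2%), Hnrnpc (12.3%) and Srsf10 (10.04%) follow, and the other members have less than 10%. The copies are mostly processed pseudogenes, which took few counts: the 6 pseudogene copies of Hnrnpa1 in the tables summed to 37, 0 and 19, and the copy of Hnrnpk, Gm7964, had 59, 0 and 21. Reads that map to several places were not asked for in the counting command, so the counts of these 9 members are uncertain.

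Exons on the other strand overlap 11 of the 31 members, 8 hnRNP and 3 SR genes, against 22.1% of protein-coding genes. They form 13 pairs with an opposite-strand partner. The partner had more counts than the member in 9, 8 and 9 of 13 pairs in replicates 1, 2 and 3, and in the same 8 in every library. Members summed to 28844, 274 and 12866 counts, and their partners to 83995, 1089 and 101569. The counting setting gives a fragment to the gene on the strand of its first read. The read orientations were thus separated in shared exons too. The strand the kit reads first is not known here. Whether the counts of a gene come from its own transcripts is therefore unknown, in shared exons and elsewhere.

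Hnrnpab and Phykpl, a gene of amino acid metabolism, meet end to end and share 809 bases, 29.1% of the Hnrnpab exonic length. Hnrnpab had 8658, 54 and 3488 counts, against 51657, 756 and 60964 for Phykpl. Phykpl was 5.97, 14.0 and 17.5 times as high in counts and made up 61.5, 69.4 and 60.0% of the partner sum. Per length Phykpl was also the higher in every library, at 2488, 3218 and 3189 TPM against 1454, 801 and 636 TPM for Hnrnpab. Hnrnpab, the highest hnRNP gene with the deposited length, was thus below its neighbour on both scales.

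The SR genes with overlap showed the same order in counts. Srsf2, with 1855, 18 and 835 counts, shares 460 bases with Mettl23 (10103, 127 and 12852 counts) and 288 with Mfsd11 (6239, 32 and 8022 counts), 25.3% of its length in all. Srsf4 shares 43.0% of its length with Gm12992 and had 1051, 8 and 666 counts, against 6022, 34 and 6933 for Gm12992. Srsf1, with 2036, 11 and 845 counts, shares 98 bases at its start with Gm11508, an antisense transcript with 2991, 25 and 4226 counts.

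Of the hnRNP pairs, Hnrnpd (1132, 9 and 477 counts) was below the antisense gene Gm17092 (1373, 21 and 1728). Hnrnph3 (231, 7 and 120 counts) was below Rufy2 (832, 11 and 1105). Hnrnpf, with 585, 10 and 230 counts and 26.5% overlap in all, was below Gm43863 (2982, 60 and 3693 counts) in every library, and below 4933440N22Rik (1035, 8 and 1158 counts) in replicates 1 and 3. In counts Hnrnpu (8037, 80 and 4231) stood above Cox20 (700, 14 and 836), whose exonic length lies to 91.1% under Hnrnpu. Per length Hnrnpu was below it in every library, at 324, 285 and 185 TPM against 370, 655 and 480 TPM for Cox20. In counts Hnrnpk also stood above Rmi1 (42, 1 and 25), Hnrnpl above Gm44702 (17, 0 and 12) and Hnrnpr above Gm27022 (2, 0 and 15). Per length Hnrnpr was below Gm27022 in replicate 3, at 5.78 against 10.6 TPM. On the same strand, 24.9% of the Hnrnpm length is shared with March2, which had 32, 0 and 13 counts.

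**Figure D4:**
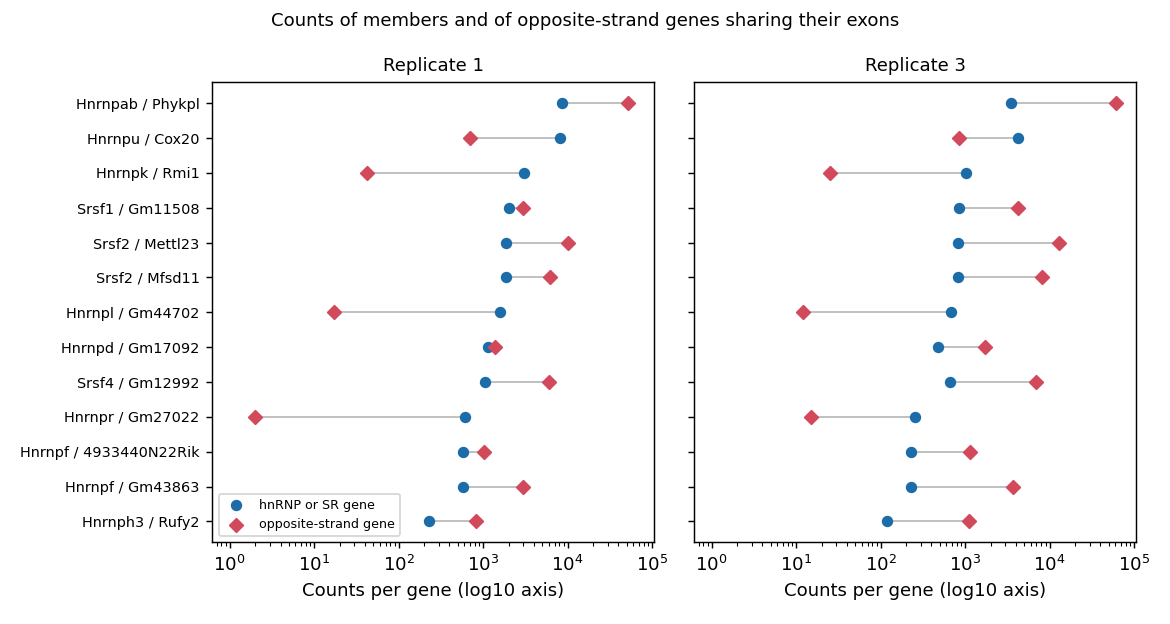
Counts (log10 axis) of each member (circles) and of the opposite-strand gene that shares its exons (diamonds) in replicate 1 (left) and replicate 3 (right), 13 pairs ordered by the member's count. Phykpl, Mettl23, Mfsd11 and Gm12992 lie above their members in both libraries, with 8658 counts for Hnrnpab and 51657 for Phykpl in replicate 1, while Cox20, Rmi1, Gm44702 and Gm27022 lie below theirs.

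Members and partners also differed between the deep libraries. As a share of all counts, all 30 members with at least 50 counts were lower in replicate 3 than in replicate 1. A lower value was common on this scale. Of all 10019 genes at that floor 2534 were above 0, and of the 5857 without opposite-strand exons 303 were. The median log2 ratio of CPM, replicate 3 over replicate 1, was -0.87 in the 19 members without opposite-strand exons (-1.09 to -0.37) and -0.83 in the 11 with them (-1.15 to -0.24). Their partners had a median of 0.73, with 10 of 11 above 0, against 2231 of all 4162 genes with opposite-strand exons. Over all genes the medians were -0.84 without opposite-strand exons (quartiles -1.03 and -0.64, 5857 genes) and 0.22 with them (-0.74 and 0.77, 4162 genes). The members, overlapping or not, thus lay near the genes without overlap. What differs between these libraries was not tested.

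Relative to the median of genes without overlap, members ran from -0.31 in Hnrnpk to 0.61 in Srsf4. Hnrnpll (0.47), Srsf11 (0.44), Hnrnpa0 (0.36), Hnrnpu (0.34), Hnrnph3 (0.32) and Hnrnpul2 (0.26) lay above that median. Hnrnph2 (-0.25), Hnrnpa1 (-0.24), Srsf5 (-0.23), Hnrnpc (-0.22) and Hnrnph1 (-0.21) lay below it with Hnrnpk.

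**Figure D5:**
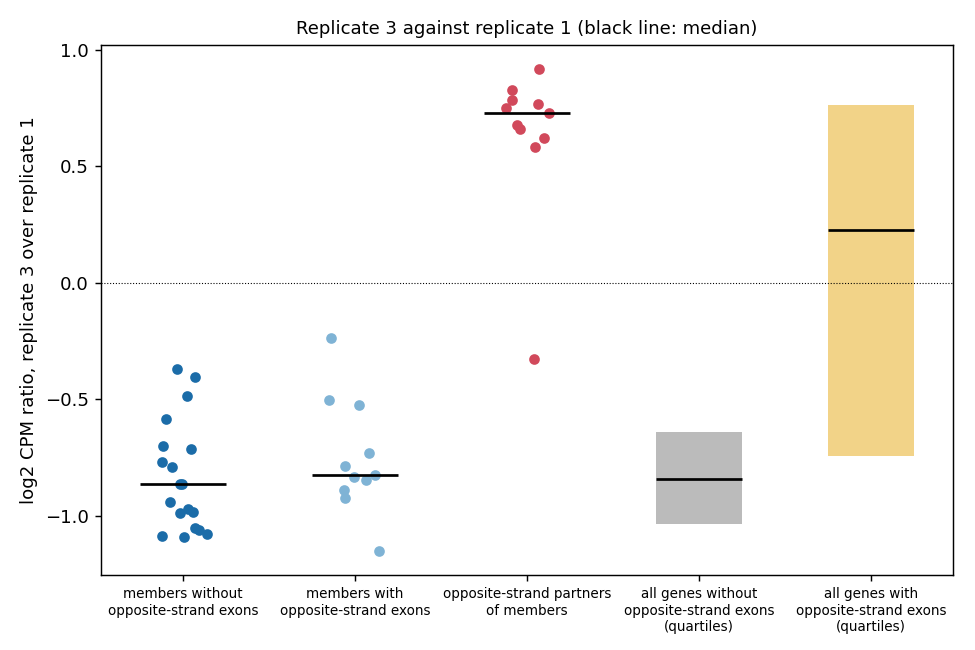
log2 ratio of CPM, replicate 3 over replicate 1 (vertical axis), for members without and with opposite-strand exons and for the partners of members (points, 1 per gene with at least 50 counts over both libraries), and for all genes in the same classes (boxes from the lower to the upper quartile); black lines are medians. Both member classes lie near the genes without overlap (medians -0.87, -0.83 and -0.84). Of the partners, 10 of 11 lie above 0, against 2231 of all 4162 genes with opposite-strand exons.

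A chi-square test on TMM-scaled totals asked which genes varied between the 3 libraries by more than counting error. It called 25 of the 30 members tested (17 of 20 hnRNP and 8 of 10 SR genes), against 63.2% of the 7406 genes tested. Called and lower in replicate 3 than in replicate 1 were 24 of the 30, against 36.3% of the genes tested. Called and higher was 1, Srsf4, against 26.9%. These background shares are not matched for overlap or depth. On TMM scaling the median log2 ratio of replicate 3 to replicate 1 was -0.39 over all genes without opposite-strand exons and 0.68 over those with them. With replicate 3 left out 1 member was called, Hnrnpab (3.33% of members, against 3.65% of all genes tested). Without replicate 1 Hnrnpc and Hnrnpk were called (6.67%, against 9.47%). These shares were near the background, but both settings set 1 deep library against replicate 2, with 80 counts or fewer per member. At that depth few changes could be called, so the low numbers do not show that members did not vary. Without replicate 2, 17 members were called (56.7%, against 37.9%). The direction depends on the scaling, which moved the median of all genes between -0.72 with library totals and 0.10 with scaling on genes without overlap. Over these scalings the members lower and higher in replicate 3 numbered 30 and 0 with totals, 27 and 3 with TMM, 24 and 6 with DESeq2 size factors, and 17 and 13 with scaling on genes without overlap.

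Tested among the genes without opposite-strand exons and scaled on these, 9 of 19 members varied (8 of 12 hnRNP and 1 of 7 SR genes), against 13.7% of 4182 genes. Members were more deeply counted than the rest, with a median of 2329 counts against 340. Among genes with at least 1000 counts, 9 of 16 members varied (56.2%), against 32.1% of 655 genes. On this scale Hnrnpa1 (adjusted p = 2.0e-07), Hnrnpa2b1, Hnrnpc, Hnrnpa3 and Hnrnph1 were called by the chi-square test on edgeR-scaled totals and had the lower value in replicate 3 than in replicate 1. Srsf11 (adjusted p = 7.8e-13), Hnrnpll (adjusted p = 2.0e-06), Hnrnpul2 and Hnrnpa0 were called in the same edgeR-scaled test and had the higher value in replicate 3. The test asks whether the 3 libraries differ by more than counting error, and sets neither a direction nor the spread between samples, a coefficient of variation of 0.17 in these genes, against the difference of replicates 3 and 1. The directions are thus descriptions of single libraries. With replicate 2 left out and all genes scaled together, Hnrnpul2 was not called.

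Genes that act with both families were read from 4 lists, with the background shares given above: 14.8% of all genes reached 1 TPM in every library, and of the genes tested 63.2% varied, 36.3% with a lower and 26.9% with a higher value in replicate 3 than in replicate 1. Directions are on TMM scaling, and another scaling can turn them. The shares are not matched for overlap or depth. Of 8 kinases and import factors of SR proteins, 7 reached 1 TPM in every library. Srpk1, the cytoplasmic SR kinase, had the highest mean at 33.7 ± 13.6 TPM, followed by the nuclear kinases Clk3 (27.9 ± 4.10) and Clk1 (27.5 ± 11.2) and by Srpk2 (22.5 ± 8.84; SD, n = 3). In replicate 3 the order turned, with Clk3 at 26.9, Srpk2 at 18.5 and Srpk1 at 18.1 TPM. Of 7 tested, 5 varied, near the background share, 3 lower and 2 higher in replicate 3, and Srpk3 had 3, 0 and 6 counts.

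Of 23 SR-related and hnRNP-like genes, 21 reached 1 TPM in every library and all 21 tested varied, against 63.2% of the genes tested, 20 lower and 1 higher (Acin1) in replicate 3. The poly(C) binder Pcbp1 led at 339 ± 116 TPM, followed by Sfpq (196 ± 76.9), Pcbp2 (168 ± 73.0, with 59.3% of its length under opposite-strand exons) and Nono (130 ± 55.4). The exceptions were Ptbp2, the neuronal relative of Ptbp1, with 65, 0 and 29 counts, and Pcbp3 with 13, 0 and 4.

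All 17 core spliceosome genes reached 1 TPM in every library, and 14 of the 17 varied, against 63.2% of the genes tested, all 14 lower in replicate 3 on TMM scaling. Snrpd1, a subunit of the Sm ring, had 458 ± 249 TPM, Snrpb 189 ± 99.7, Sf3b2 184 ± 79.8 and U2af1, which reads the 3′ splice site, 180 ± 80.8. The 3 that did not pass, of those 17, were Snrnp70, Snrpd2 and Snrpc.

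Of 15 other splicing regulators, 7 reached 1 TPM in every library. Rbm39 (109 ± 37.0 TPM), Tial1 (57.6 ± 59.7), Esrp2 (48.6 ± 12.5) and Celf1 (33.9 ± 17.1) had the highest means. Tial1 stood at 32.9, 125.6 and 14.2 TPM, with 21 counts in replicate 2, and was below Esrp2 in replicates 1 and 3. The epithelial and neuronal regulators Esrp1, Rbfox1, Rbfox3 and Nova1 had no count in any library. Esrp2, also an epithelial regulator, had 318, 6 and 467 counts and has 7.79% of its length under opposite-strand exons. Of the 7 tested, 5 varied, near the background share, 4 lower and 1, Esrp2, higher in replicate 3 than in replicate 1.

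Start sites of 9 of the 31 members lie within 1000 bp of a divergent protein-coding gene, against 6.86% of protein-coding genes. The neighbour was the lower of each pair in TPM in every library, except Gla. Cbx5, a heterochromatin protein gene 616 bp from Hnrnpa1, had 35.8, 32.1 and 14.2 TPM, and its relative Cbx3, next to Hnrnpa2b1, 18.9, 6.89 and 8.72 TPM. Gla, next to Hnrnph2, was the higher of its pair in replicate 2 alone, with 63.2 TPM from 5 counts. Ttc9c, next to Hnrnpul2, had 22.7, 62.2 and 9.93 TPM and was below it throughout.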

How the data were processed

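RNA was measured by sequencing in 3 libraries of 1 group. The assay label names total RNA, whereas the linked protocol's title names poly(A)+ RNA. Per the file headers, the authors counted read pairs with both ends mapped with featureCounts 1.4.6-p4 over exons summed by gene on GENCODE M13, with strand setting 1, from alignments named star2. The deposited values are raw counts per gene with exon-union lengths, on mm10 per the labels; kit and aligner version are not given in the sources used. Members and lists were chosen with earlier results of these data known. Symbols (50376 matched), biotypes and transcripts came from GENCODE M21 on the same assembly.

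CPM and TPM were computed from the counts with pseudocount 1 on log2 scales. Variation was tested per gene by chi-square on totals scaled by TMM (edgeR 4.0.16, R 4.3.3) over genes kept by filterByExpr, with Benjamini-Hochberg adjustment at 0.05, since edgeR's test between groups needs more than 1 group. On simulated data over 7406 genes that held counting error and no spread between libraries, 99% of 2-fold changes were recovered and 0.31% of unchanged genes called. The changes were placed in replicate 3 only, in genes above a count floor, so recovery in other genes or libraries is not given. The simulation gives no rate of false calls in these samples. Overlaps used bedtools 2.31.1, paralogue intervals the exact binomial distribution, and size factors and dispersions of DESeq2 1.42.0 served as alternatives. Named genes were all members, all opposite-strand partners and the 4 highest of each list by mean TPM; Srpk3, Acin1, Ptbp2, Pcbp3, Esrp1, Rbfox1, Rbfox3, Nova1, Snrnp70, Snrpd2, Snrpc and the copies, divergent neighbours and cell markers described were added, those beyond the marker lists after their values were seen. Alternatives covered unit, length, pseudocount, filter, scaling, overlap and each replicate left out.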

Additional observations from a re-analysis of the deposited data

How the results depend on the processing

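The family comparison kept its direction under all alternatives run: the hnRNP minus SR difference of median log2(TPM + 1) moved to 0.74 in CPM and to 0.87 over members without opposite-strand exons, and stayed within the spread between libraries under the others. Members varying beyond counting error numbered 25, and 9 among genes without opposite-strand exons. Leaving out each replicate in turn gave 1 to 17, with the fewest calls where 1 deep library was set against the shallow replicate 2. The median ratio of replicate 3 to replicate 1 was -0.41 with TMM and -0.31 with DESeq2 size factors for members without overlap, and -0.37 and -0.27 for members with overlap. The level floor was met by 19 of the 20 members without overlap, a smaller set by construction. Hnrnpa1/Hnrnpa2b1 reversed to -0.83 as a CPM ratio and to -0.98 with the coding transcript length, Srsf3/Srsf7 to 0.10 in CPM, Srsf5/Srsf4 to 0.15 with the coding length, and Srsf6/Srsf4 to 0.36 in CPM and 0.13 without replicate 3 (leaving out single replicates gave -0.23 to 0.13); dividing by another length or by none is what these alternatives change, and for the last the cause was not tested. The spread between libraries over all kept genes, a coefficient of variation of 0.34 with TMM, was 0.17 in genes without opposite-strand exons. Alternatives on overlap partners, the second background of genes with at least 1000 counts and the level floor without overlap were added after the data were seen. No paired analysis was possible because there is 1 group. Depth limits replicate 2, where 3 counts equal 59.3 CPM.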
